A study of Canis lupus familiaris with 48 samples.

Results

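The genes described here are the 168 genes of a dog kidney cell line whose RNA was at most 0.33 of the control level after 24 h in medium with added NaCl or with added raffinose, but stayed near the control level after added urea. They were chosen by their group means in counts per 1000000 counted reads (CPM), with 0.1 CPM added to each mean. A gene had to have a control mean of at least 2 CPM, ratios to control of 0.33 or less with NaCl and with raffinose, a urea to control ratio between 0.67 and 1.5, and a NaCl to raffinose ratio between 0.625 and 1.6. Of the 32704 genes in the table, 11324 reached the control mean of 2 CPM, and 168 of these met every condition, which is 1.48% of them. The number depends on scaling: with library totals rescaled by edgeR (TMM) 110 genes met the same conditions, and with DESeq2 size factors 107 did. ENSCAFG00000012368 was left out by name and would not have met the conditions, since its urea ratio was 0.574. All comparisons among the 4 group means were used in the choice, so their values below are descriptions and no test of them is offered as support.

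The study grew MDCK I cells, an established epithelial line from dog kidney, for 144 h in 24-well plates and changed the medium for the last 24 h. Control cells stayed in regular medium at 300 mOsm, and the other 3 groups received 200 mOsm of added NaCl, raffinose or urea, for a total of 500 mOsm. Each group had 12 libraries of polyadenylated RNA, 1 at each of the cell passages 1, 4, 5, 7, 8, 10, 11, 13, 14, 16, 17 and 19. All libraries came from this 1 line, and the labels do not say whether the 4 libraries of a passage came from 1 parent culture, so p-values measure the spread between passages of 1 line. Library totals ran from 3.92 megareads, in the urea library of passage 8, to 16.16 megareads. ENSCAFG00000015756, which had at least 1248 CPM in each NaCl and raffinose library, was highest among control libraries at passage 4 (16.0 CPM), followed by passage 1 (12.7 CPM, group median 4.11), and highest among urea libraries at passage 5 (21.8 CPM), followed by passage 1 (5.77 CPM, group median 0.775). Counts without the urea libraries of passages 5 and 8 and the control library of passage 4 are given with the other alternatives.

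Salt and the sugar raffinose enter cells poorly, so adding them outside draws water out of the cell and shrinks it; urea crosses most cell membranes and raises osmolality with far less lasting loss of volume. Epithelial cells of the kidney medulla meet high salt and high urea. Cells under lasting hypertonic stress are known to take up or make compatible organic osmolytes, through transcription factors such as TonEBP (NFAT5), and many of their other transcripts change as well. The genes below carry Ensembl identifiers only; a symbol was found for 0 of them, so each is described by its position on the CanFam3.1 dog genome, its exons and its levels, and no gene function is given.

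Together the 168 genes took up a much smaller part of the RNA after the impermeant solutes. They held 2.48 ± 0.189% (SD, n = 12) of counted reads in control libraries, with a range from 2.24 to 2.91%. After NaCl the share was 0.581 ± 0.0659% (0.519 to 0.750%), and after raffinose it was 0.499 ± 0.0629% (0.396 to 0.598%). After urea it was 2.57 ± 0.186% (2.21 to 2.89%). No NaCl or raffinose library reached the lowest control or urea library, while the urea and control ranges overlapped over most of their length. In bulk RNA, fewer cells that express a gene and less of its RNA in each cell cannot be told apart.

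**Figure D1:**
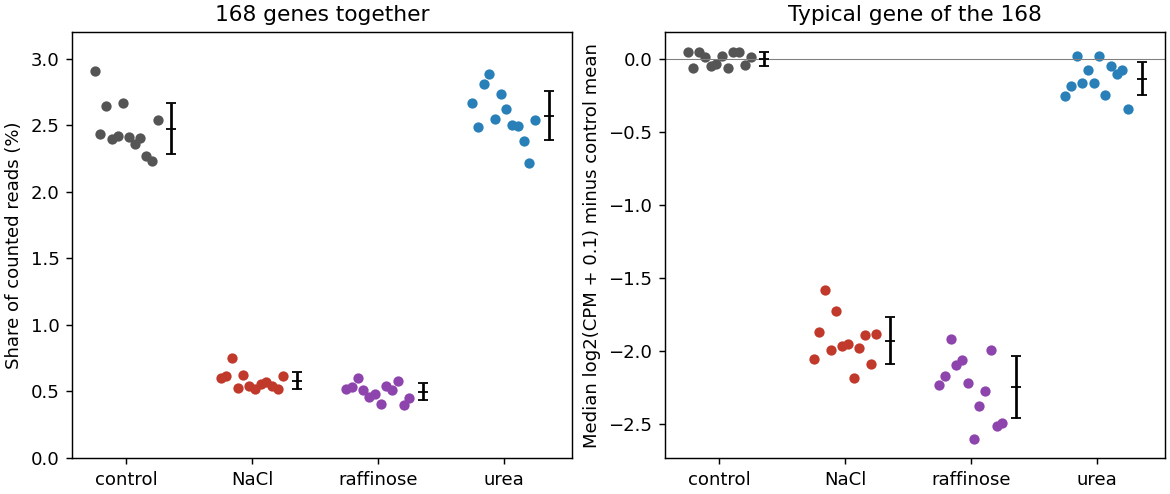
The left panel shows the share of counted reads, in percent, that fell on the 168 genes in each of 48 libraries, and the right panel shows the median over the 168 genes of log2(CPM + 0.1) minus the same gene's control mean; points run by passage from left to right within a group, and bars show the mean and SD of 12 libraries. NaCl and raffinose libraries lie below all control and urea libraries in both panels, and the NaCl library of passage 5 is the highest of its group.

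A few abundant genes made up most of that share. The 5 with the highest CPM gave 60.3% of the control sum, and 4 genes gave more than the rest combined. Without those 5, the other 163 genes still held 0.983 ± 0.0381% of control reads, 0.251 ± 0.0310% of NaCl reads, 0.206 ± 0.0304% of raffinose reads and 0.887 ± 0.0655% of urea reads (SD, n = 12 in each group). The 5 held 1.49 ± 0.185% of control reads and 1.69 ± 0.199% of urea reads. The total after urea thus combines a higher mean share of the 5 with a lower mean share of the other 163. The control mean of single genes ran from 2.12 to 4560 CPM with a median of 23.4 CPM, against 36.1 CPM over the 11324 genes. Low levels were more common among the 168: 49 of them (29.2%) were under 10 CPM in control, compared with 19.5% of the 11324, and 32 (19.0%) were at 100 CPM or more, compared with 21.6%.

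The typical gene lay not far below the limit that chose it. The ratio to control had a median of 0.272 after NaCl (0.0515 to 0.3299) and of 0.222 after raffinose (0.0589 to 0.323), which are 3.68-fold and 4.50-fold lower levels. Over the 11324 genes the medians were 0.857 and 0.822, so the ratios of CPM carry a general shift below 1. Of the 168 genes, 57 were at least 4-fold lower after both solutes, 24 at least 5-fold and 2 at least 10-fold, where 157, 87 and 15 of the 11324 genes were. Raffinose gave the lower mean in 146 genes (86.9%), where 65.0% of the 11324 had this order, and the NaCl to raffinose ratio had a median of 1.22 against 1.05. At the 5-fold mark the counts were 28 genes for NaCl and 61 for raffinose, where 96 and 182 of the 11324 genes were. The NaCl to raffinose ratio was one of the conditions, so this order is a description.

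**Figure D2:**
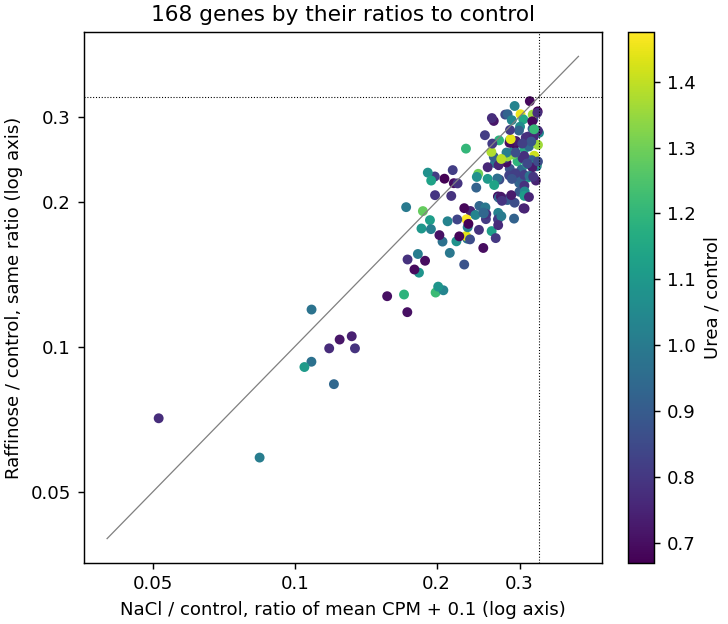
Each point is 1 of the 168 genes, placed by its NaCl to control ratio (x, log axis) and its raffinose to control ratio (y, log axis), both from group means of CPM + 0.1, and coloured by its urea to control ratio. Dotted lines mark 0.33 and the grey line marks equal ratios; most points lie below the grey line, and 2 genes stand apart at the lower left.

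The window set for urea cut through a continuous spread of responses. Of 360 genes at 0.33 of control or less after both impermeant solutes, 200 had a urea ratio inside the window, 141 lay under it and 19 lay over it. Of the 200, a further 31 dropped out because raffinose left them much lower than NaCl, and 1 because NaCl left it much lower than raffinose. The plot of urea ratios shows no gap at either edge of the window. Within the 168 the urea ratio had a median of 0.918 and a range from 0.6704 to 1.47, and 109 genes (64.9%) had a urea mean below the control mean, compared with 56.4% of the 11324.

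**Figure D3:**
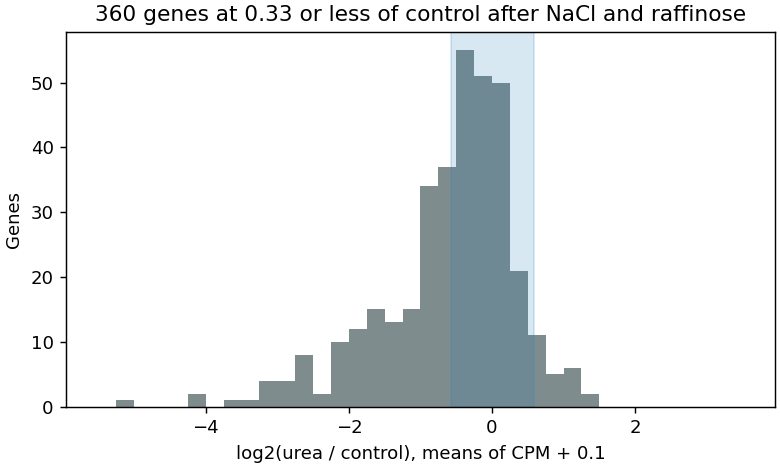
The histogram counts the 360 genes at 0.33 of control or less after both NaCl and raffinose by log2 of their urea to control ratio (x, bins of 0.25). The shaded band is the window that chose the genes; 200 of the 360 lie in it, and the lower edge falls on the slope of the main peak.

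Genes on either side of a limit had nearly the same values, apart from the lower limit of the NaCl to raffinose ratio. ENSCAFG00000003227 had the lowest control mean in the set, 2.12 CPM, and ENSCAFG00000010222 missed the set at 1.99 CPM. ENSCAFG00000014260 (chromosome 9, 19180455 to 19191338, 17 exons) was just inside at 0.3299 of control after NaCl, and ENSCAFG00000020429 was outside at 0.3325. For raffinose, ENSCAFG00000015869 (chromosome 7, 37272709 to 37273700, 5 exons) was inside at 0.323 and ENSCAFG00000008438 outside at 0.334. The NaCl limit alone kept out 137 genes and the raffinose limit alone kept out 9. For urea, ENSCAFG00000004524 (chromosome 9, 6120384 to 6149784, 13 exons) was inside at 0.6704 with ENSCAFG00000019944 outside at 0.6686, and ENSCAFG00000005191 (chromosome 17, 21795309 to 21887216, 9 exons) was inside at 1.47 with ENSCAFG00000016905 outside at 1.51. The lower urea limit alone kept out 134 genes and the upper one 18. The control mean alone kept out 28 genes. For the NaCl to raffinose ratio, ENSCAFG00000007735 (chromosome 16, 45820867 to 45858803, 13 exons) was inside at 1.59 and ENSCAFG00000011077 outside at 1.601; the upper limit alone kept out 31 genes, and the lower one kept out ENSCAFG00000010028 only, at 0.590, where ENSCAFG00000013077 at 0.724 was the nearest gene inside.

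Fitted across all genes with edgeR, which rescales libraries by the trimmed mean of M-values (TMM), the same contrasts gave these counts at an adjusted p under 0.05. After NaCl 168 of the 168 genes were called lower, where 36.1% of 12654 tested genes were. After raffinose 168 of the 168 were called lower, where 38.2% were. The median fitted log2 difference from control was -1.72 for NaCl and -1.98 for raffinose, beside -0.02 for each over all tested genes. After urea 27 of the 168 were called higher, where 27.4% of all genes were, and 38 were called lower, where 24.9% were, with a median of -0.06. Scaled by library totals alone, the urea counts were 19 higher and 51 lower, where 51.1% of all genes were called in either direction, and the medians of all tested genes moved to -0.19 for NaCl, -0.25 for raffinose and -0.05 for urea. Between the impermeant solutes, 48 genes were called higher after NaCl, where 7.42% of all genes were, and 0 of the 168 were called lower after NaCl, where 7.97% were; 72 of the 168 had an unadjusted p under 0.05 in either direction, as did 3727 of the 12654 genes, and DESeq2 called 51 higher after NaCl and 0 lower, where it called 2143 of 25518 genes in either direction. The 25518 genes of DESeq2 were not filtered on low counts. Since these contrasts chose the genes, nothing further is read from the counts.

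Single libraries followed the group means closely. Those means chose the 168 genes, so such separation follows largely from the choice, and the counts below are descriptions. All 12 NaCl libraries lay below all 12 control libraries for 159 of the 168 genes, where this held for 18.1% of the 11324, and all 12 raffinose libraries did so for 158 genes, where it held for 22.4%. Both separations held for 156 genes. The share of the 11324 genes with both was not computed, and it cannot exceed the 18.1% for NaCl. Compared by passage number, NaCl was lower in all 12 passages for 167 genes (35.2% of the 11324) and raffinose for 165 genes (40.2%). ENSCAFG00000009334 and ENSCAFG00000029727 were lower in 11 of 12 passages after raffinose, and ENSCAFG00000030951 in 11 of 12 after each solute; these 3 were singled out after their values were seen. Of the 12 genes with some overlap, 8 had control means under 6 CPM, where single reads move a value most, and the highest control mean among them was 92.2 CPM.

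ENSCAFG00000013077 (chromosome 26, 24244772 to 24255008, minus strand, 6 exons, 807 exonic bases) was the gene lowered furthest by NaCl. Its control libraries had a lowest value of 10.6, a median of 21.9 and a highest of 32.1 CPM. NaCl libraries had 0.230, 1.07 and 2.998 CPM, raffinose libraries 0.536, 1.32 and 3.18 CPM, and urea libraries 5.69, 16.3 and 32.5 CPM, in the same order. The NaCl and raffinose values did not overlap those of control or urea, and the urea and control values overlapped widely. The means were 19.4-fold lower than control after NaCl and 14.1-fold lower after raffinose. The urea to control ratio was 0.772, and urea was the lower in 11 of 12 passages.

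ENSCAFG00000007882 (chromosome 3, 13232651 to 13276935, plus strand, 14 exons, 6065 exonic bases) was the gene lowered furthest by raffinose and had far more reads. Its lowest, median and highest control values were 252, 427 and 555 CPM, and its urea values were 237, 443 and 544 CPM. After NaCl they were 18.3, 35.4 and 58.3 CPM and after raffinose 12.1, 25.7 and 39.9 CPM. The 2 low groups lay far under the other 2, and within each pair the values overlapped. The mean was 11.9-fold lower after NaCl and 17.0-fold lower after raffinose, and the urea mean was 1.01 times the control mean.

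**Figure D4:**
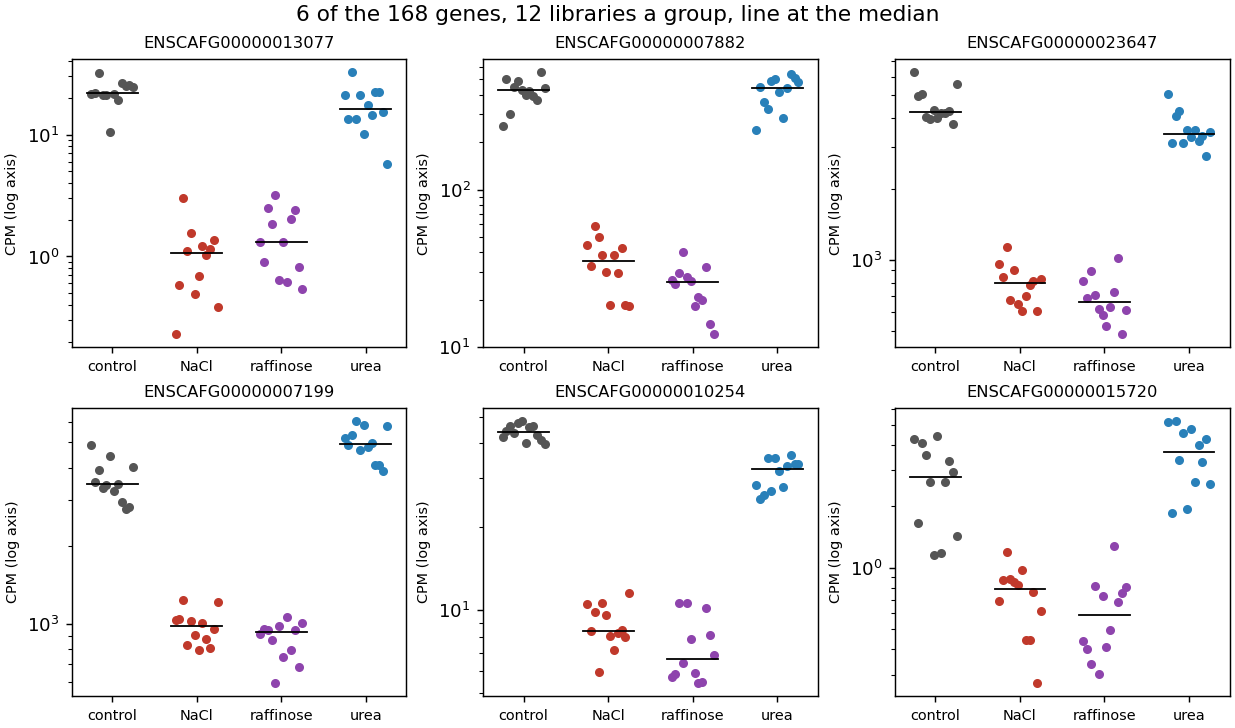
CPM (log axis) of 6 of the 168 genes in each library, with points running by passage within a group and a line at the group's median: the 2 lowered furthest (ENSCAFG00000013077, ENSCAFG00000007882), the 2 most abundant (ENSCAFG00000023647, ENSCAFG00000007199), and those with the lowest and highest relative spread in control (ENSCAFG00000010254, ENSCAFG00000015720). NaCl and raffinose points lie below all control points except for ENSCAFG00000015720, whose lowest control library is at 1.16 CPM.

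ENSCAFG00000023647 (chromosome 9, 21240778 to 21245039, plus strand, 6 exons, 1547 exonic bases) was the most abundant of the 168. Its lowest, median and highest values were 3756, 4243 and 6265 CPM in control, 605, 794 and 1136 CPM after NaCl, 482, 660.1 and 1014 CPM after raffinose, and 2767, 3416 and 5050 CPM after urea. NaCl and raffinose libraries were all below control and urea libraries. The mean was 5.76-fold lower than control after NaCl and 6.59-fold lower after raffinose. With urea the mean was 0.785 of control and lower in 11 of 12 passages. Per kilobase of exons it had 2948 CPM in control, the highest of the 168 on that scale too.

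Next in abundance were ENSCAFG00000007199 (chromosome 27, 2221689 to 2229112, plus strand, 9 exons) and ENSCAFG00000007154 (chromosome 27, 2189327 to 2193773, minus strand, 7 exons), which lie 27915 bases apart. For ENSCAFG00000007199 the lowest, median and highest values were 2777, 3452 and 4902 CPM in control, 794, 985 and 1236 CPM after NaCl, 593, 932 and 1062 CPM after raffinose, and 3866, 4933 and 6061 CPM after urea. The urea libraries overlapped the control range but were higher than the control library of the same passage in all 12 passages. ENSCAFG00000007154 had the same order of groups, with means of 2454, 705, 661 and 3539 CPM in control, NaCl, raffinose and urea, and it was also higher after urea in all 12 passages. Their urea ratios of 1.39 and 1.44 were close to the upper limit of 1.5. ENSCAFG00000007154 was named after its values were seen.

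Also among the 5 most abundant were ENSCAFG00000001778 (chromosome 1, 84743276 to 84763121, 13 exons), with mean CPM of 2176 for control, 399 for NaCl, 309.9 for raffinose and 2364 for urea, and ENSCAFG00000005734 (chromosome 9, 635976 to 637805, 4 exons), with 2170.4, 420.2, 397 and 2430 CPM in that order. Both had urea means above control, at ratios of 1.09 and 1.12, and both were named for completing the 5, after their values were seen. On a scale of CPM per kilobase in control, the order of the 5 was ENSCAFG00000023647, ENSCAFG00000007199 at 2410, ENSCAFG00000005734 at 1609, ENSCAFG00000007154 at 1376 and ENSCAFG00000001778 at 884.

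The genes of lowest level came close to the limit of detection under the impermeant solutes. None of the 168 had 0 reads in any control or urea library. In at least 1 NaCl library 4 (2.38%) had 0 reads, and in at least 1 raffinose library 7 (4.17%) did. Among all genes with a control mean of at least 2 CPM, the shares were 0.159% for NaCl and 0.247% for raffinose. They were 0.0177% for control and 0.283% for urea. The conditions asked for low NaCl and raffinose means beside control and urea, so this contrast follows largely from the choice. The members with 0 reads were 8 genes in all, with control means of at most 4.47 CPM. ENSCAFG00000003227 (chromosome 14, 47612282 to 47721734, plus strand, 7 exons) had control values of 1.30, 2.09 and 3.50 CPM (lowest, median and highest) and urea values of 0.766, 1.80 and 3.38 CPM. It had 0 reads in 4 of 12 NaCl libraries and in 6 of 12 raffinose libraries, and its highest values there were 0.622 and 0.3299 CPM. Over 12 libraries it had 280 control reads, 24 NaCl reads, 10 raffinose reads and 260 urea reads. A library with 0 reads allows up to 3 reads, counting error only, so presence in those libraries was not detectable at this depth.

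Spread among libraries was wider for these genes under the impermeant solutes than for expressed genes at large. The median coefficient of variation (CV) over the 12 libraries of a group was 16.7% for control, 24.9% for NaCl, 29.2% for raffinose and 20.5% for urea, beside 14.8%, 15.02%, 17.6% and 15.6% over the 11324 genes. Part of that is counting: the CV that Poisson counting alone gives had medians of 6.56%, 11.9%, 14.0% and 7.05% for the 168. With the counting part taken off, the medians were 14.5%, 19.5%, 24.1% and 17.96%, beside 13.2%, 13.2%, 15.6% and 13.7% over the 11324 genes. These are descriptions of spread, and their differences were not tested.

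The steadiest gene in control was ENSCAFG00000010254 (chromosome 28, 15202310 to 15214440, plus strand, 11 exons), with a CV of 6.49%. Its lowest, median and highest values were 39.7, 44.04 and 48.3 CPM in control, 5.97, 8.41 and 11.5 CPM after NaCl, 5.44, 6.64 and 10.6 CPM after raffinose, and 25.2, 32.4 and 36.3 CPM after urea. Urea libraries also lay below all control libraries here, at a mean ratio of 0.707. At the other end, ENSCAFG00000015720 (chromosome 9, 20787795 to 20795967, plus strand, 12 exons) had a control CV of 43.3%. Its values were 1.16, 2.79 and 4.44 CPM in control, 0.274, 0.791 and 1.20 CPM after NaCl, 0.303, 0.587 and 1.28 CPM after raffinose, and 1.86, 3.69 and 5.25 CPM after urea. NaCl and raffinose each overlapped the lowest control libraries, yet were lower in all 12 passages. ENSCAFG00000018019 (chromosome 5, 39567971 to 39583403, plus strand, 6 exons) had a control CV of 42.3%, with 15.8 CPM at passage 19 where the control median was 6.39 CPM; its highest values were 3.40 CPM after NaCl and 2.73 CPM after raffinose, below its lowest control value of 4.32 CPM.

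Library to library, the levels of the 168 genes were more alike in their ups and downs under the impermeant solutes than in control. The mean pairwise Pearson correlation of log2 levels over the 12 libraries was 0.193 for NaCl and 0.184 for raffinose, 0.0759 for urea and 0.0205 for control. Over the 11324 genes the same means were 0.0362, 0.0375, 0.0241 and 0.0105. All these points share their libraries and depths, so the values are descriptions. Some libraries stood out. The NaCl library of passage 5 held the highest NaCl value for 68 of the 168 genes (40.5%), where it did so for 14.1% of the 11324, and the raffinose library of passage 5 held the highest for 41 (24.4%), where it did so for 9.65%. In these libraries the median of the 168 genes was -1.58 and -1.92 on the log2 scale relative to control, the least lowered of each group, where the groups ran down to -2.19 and -2.60. At the other end, the lowest value of a gene was in the NaCl library of passage 13 for 51 of the 168 genes (30.4%, compared with 10.8% of the 11324), in the raffinose library of passage 11 for 39 (23.2%, compared with 7.04%) and in that of passage 19 for 32 (19.0%, compared with 9.93%). Without passage 5 the mean correlation was 0.108 for NaCl, 0.161 for raffinose, 0.0639 for urea and 0.0189 for control. Leaving out each passage in turn gave 0.108 to 0.211 for NaCl, lowest without passage 5, and 0.147 to 0.199 for raffinose, lowest without passage 11. What sets these libraries apart was not tested.

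Passage number was not used in choosing the genes, so slopes over passage could be tested. Counts were summed over the 4 libraries of a passage, and a linear term over the 12 sums was fitted with edgeR. None of the 168 genes passed an adjusted p under 0.05, where 0.0615% of 14626 tested genes did (9 genes). Of the 168, 25 (14.9%) had an unadjusted p under 0.05, compared with 12.3% of all genes. DESeq2 called 4 of the 168, where it called 0.690% of 25518 genes (176 genes). Those 25518 are all genes with a read, not filtered on low counts, so that share is not like for like with the 168. Slopes were positive in 88 and negative in 80, with a median of 0.01 log2 units per 10 passages and a range from -0.83 to 0.54. In the sums, control and urea libraries weighed most, since the 168 genes held 2.48% and 2.57% of reads there on average. After NaCl and raffinose they held 0.581% and 0.499%, so the summed slopes follow mainly control and urea. In the 12 control libraries alone 0 of the 168 passed with edgeR, where 0.136% of 12483 genes did (17 genes). An unadjusted p under 0.05 was found in 28 (16.7%), compared with 16.5% of all genes. DESeq2 called 5 of the 168 in control, where it called 1.71% of 21748 genes (371 genes). Those 21748 were not filtered on low counts either.

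ENSCAFG00000016828 (chromosome 9, 24325561 to 24335058, minus strand, 9 exons) had the smallest p for the slope, at -0.83 ± 0.19 log2 units per 10 passages (SE; edgeR adjusted p = 0.123). In control it stood at 6.22 CPM at passage 1, 3.76 CPM at passage 13, 1.13 CPM at passage 17 and 2.18 CPM at passage 19. Urea libraries went from 4.26 CPM at passage 1 to 1.90 CPM at passage 19, and NaCl libraries from 1.07 to 0.695 CPM, with 0 reads at passage 17. The highest value of each group was at passage 1, 4 or 5, and its slope in control alone was -0.85 ± 0.21 (edgeR adjusted p = 0.0817). DESeq2 gave an adjusted p of 0.00805 for the summed slope, and edgeR gave 0.0418 for the control slope without passage 4.

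ENSCAFG00000020014 (chromosome 5, 70745657 to 70756797, plus strand, 5 exons) had a slope in the other direction, of 0.54 ± 0.13 (edgeR adjusted p = 0.129). Its control libraries had 11.9 CPM at passage 1, 25.6 CPM at passage 10, 11.9 CPM at passage 11 and 26.4 CPM at passage 19. Urea libraries had 5.77 CPM at passage 1 and 18.4 CPM at passage 19. The course was uneven, with neighbouring passages 10 and 11 more than 2-fold apart. In control alone the slope was 0.56 ± 0.16 (edgeR adjusted p = 0.0967), and without passage 10 its adjusted p was 0.0456. DESeq2 gave adjusted p-values of 0.0115 for the summed slope and 0.0320 for control. The other members that DESeq2 called were ENSCAFG00000000483 (0.29) and ENSCAFG00000005918 (-0.60) for the summed slope, and ENSCAFG00000002814 (-0.54), ENSCAFG00000004788 (-0.40) and ENSCAFG00000004840 (-0.39) in control, all in log2 units per 10 passages; they were named after their values were seen.

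**Figure D5:**
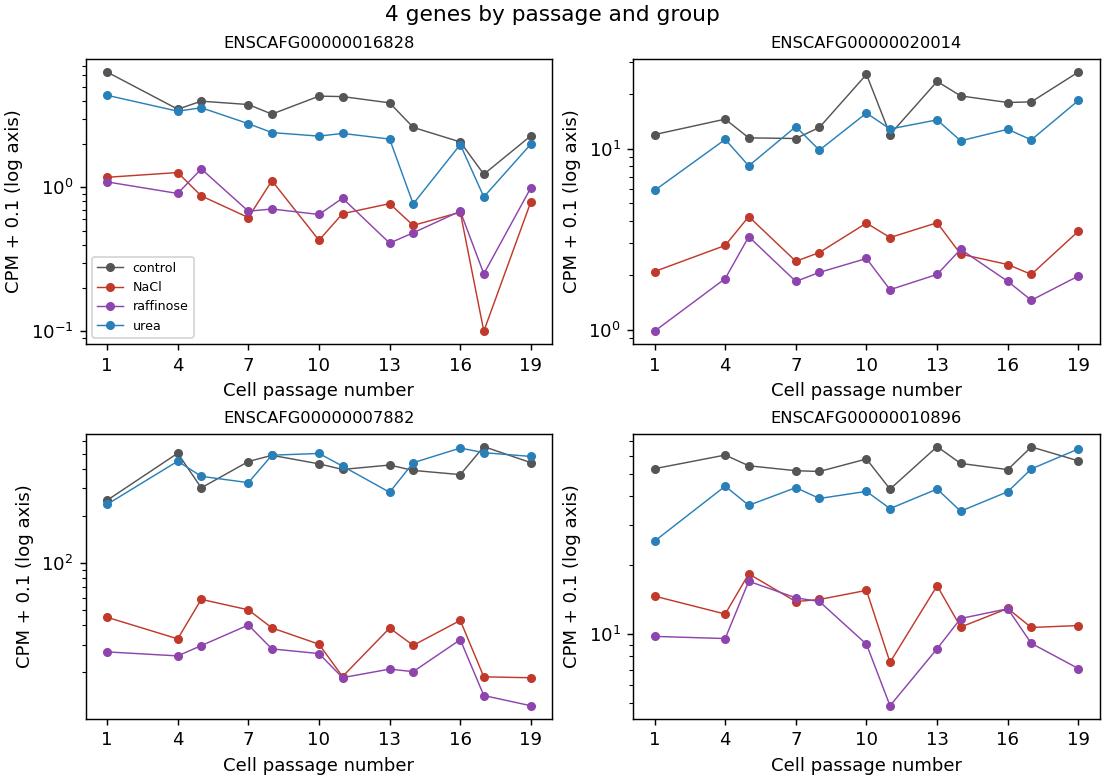
CPM + 0.1 (log axis) against cell passage number for 4 of the 168 genes, with 1 line for each group: the 2 with the smallest p for a slope over passage (top) and the 2 with the smallest p for a change of the solute effect with passage (bottom). The highest control value is at passage 1 for ENSCAFG00000016828 and at passage 19 for ENSCAFG00000020014; ENSCAFG00000007882 is higher at passages 17 and 19 than at 1 and 5 in control and lower there after NaCl and raffinose.

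The difference between solute and control was also tested for a change with passage. With all 3 solutes together, 0 of the 168 genes passed an adjusted p under 0.05 in edgeR, where 0% of 13402 tested genes did. An unadjusted p under 0.05 was found in 5 of the 168 and in 469 genes in all. DESeq2 called 0 of the 168, where it called 3 of 25518 genes. These fits counted the 4 libraries of a passage as separate. With passage as a block in edgeR, 1 of the 168 was called, where 14 of 13594 genes were. In the edgeR fit without a block, the slope of the difference from control was negative in 97 of the 168 genes for NaCl and in 111 for raffinose. It was positive in 99 for urea. Median slopes of the difference were -0.05, -0.12 and 0.04 log2 units per 10 passages, beside 0.00, 0.01 and -0.01 over all tested genes. The 3 differences share the control libraries. The 168 genes share their libraries and vary together, so the counts of signs are descriptions. Shares of signs over all tested genes were not computed.

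ENSCAFG00000007882 had the smallest p of the 168 (unadjusted p = 0.000579, edgeR adjusted p = 0.775). Its control libraries had 252 CPM at passage 1, 302 CPM at passage 5, 555 CPM at passage 17 and 438 CPM at passage 19. NaCl libraries had 44.8, 58.3, 18.5 and 18.3 CPM at those passages, and raffinose libraries had 26.8, 29.4, 14.0 and 12.1 CPM. At passages 17 and 19 the NaCl and raffinose levels were thus lower, and the control levels higher, than at passages 1 and 5. Other passages departed from this course: control had 504 CPM at passage 4, and at passage 16 it had 367 CPM with 42.7 CPM after NaCl and 32.1 CPM after raffinose. The slope of the difference from control was -0.82 ± 0.26 log2 units per 10 passages for NaCl, -0.70 ± 0.27 for raffinose and 0.16 ± 0.25 for urea. With passage as a block in the fit, this gene had an edgeR adjusted p of 0.0414 and was the only member called. Without passage 4, its slope over passage in the summed counts was 0.43 ± 0.07 (edgeR adjusted p = 0.0275), compared with 0.29 ± 0.10 (adjusted p = 0.278) with all passages.

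ENSCAFG00000010896 (chromosome 3, 42650202 to 42664423, minus strand, 8 exons) came next (unadjusted p = 0.00921, edgeR adjusted p = 1). Its lowest, median and highest values were 42.9, 54.98 and 65.9 CPM in control, 7.43, 13.3 and 18.2 CPM after NaCl, 4.76, 9.57 and 16.9 CPM after raffinose, and 25.4, 41.9 and 64.4 CPM after urea. The urea libraries ran from 25.4 CPM at passage 1 to 64.4 CPM at passage 19, the lowest and the highest of that group, while control had 52.8 and 57.1 CPM at those passages. The NaCl and raffinose libraries lay below all control libraries.

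The 168 genes were spread over the whole genome. Each of the 38 autosomes and the X chromosome held at least 1, and 0 lay in the mitochondrial genome. Chromosome 9 held 14, chromosome 7 held 11 and chromosome 2 held 9. As a share of the 11324 genes on each chromosome, the highest was 3.85% on chromosome 19 (4 of 104 genes) and the lowest 0.352% on chromosome 6 (2 of 568). The median exonic length was 2006 bases, compared with 2386 over the 11324 genes, and the median number of exons was 9 in both. Single-exon genes made up 4.76% and 5.599%, and 85 of the 168 lay on the plus strand.

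In the annotation, 12 of the 168 genes were next to another one, in 6 pairs. How many pairs randomly placed genes would give was not computed, so this number is not read as high or low. The closest pair was ENSCAFG00000030486 (chromosome 7, 12555151 to 12597882, 12 exons) and ENSCAFG00000012593 (chromosome 7, 12596550 to 12617869, 9 exons). Their spans overlap by 1333 bases on the plus strand, and overlap of their exons was not examined. Reads there may be hard to assign to 1 gene, so the values of both genes are less certain. Their control means were 91.4 and 210.0 CPM, and their ratios to control were 0.215 and 0.216 with NaCl, 0.205 and 0.232 with raffinose, and 0.789 and 0.815 with urea. Both genes had nearly the same ratios under every solute.

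Other neighbours were less alike. On chromosome 7, ENSCAFG00000016616 (41384388 to 41416973, 34 exons) and ENSCAFG00000030329 (41418246 to 41421252, 2 exons), 1272 bases apart on the plus strand, had NaCl ratios of 0.269 and 0.307 and urea ratios of 0.961 and 1.17. Their lowest, median and highest control values were 57.9, 73.04 and 81.3 CPM for the first and 14.9, 17.95 and 19.9 CPM for the second, and their highest NaCl values were 22.8 and 7.20 CPM. On chromosome 1, ENSCAFG00000006785 (116848966 to 116858194, 9 exons) and ENSCAFG00000023888 (116859787 to 116864770, 12 exons), 1592 bases apart on the minus strand, had NaCl ratios of 0.266 and 0.247, raffinose ratios of 0.240 and 0.196 and urea ratios of 0.985 and 0.937. On the X chromosome, ENSCAFG00000019185 and ENSCAFG00000019186 lie 1917 bases apart on the minus strand, with NaCl ratios of 0.302 and 0.262 and urea ratios of 1.29 and 1.12. The pairs on chromosomes 11 and 20 lie 26925 and 53571 bases apart on opposite strands. The last 3 pairs were described after their values were seen.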

How the data were processed

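The table the authors deposited holds unnormalised read counts, 1 row a gene and 1 column a library for 48 libraries. Per the labels these were single-read TruSeq (kit v2) libraries of polyadenylated RNA. CASAVA, HISAT2 2.0.5 and featureCounts 1.5.1 were used, per the submitters' processing notes; reads were counted over exons of Ensembl release 87 on CanFam3.1 without strand, per the file headers. Overlapping, antisense or near-identical genes are therefore less certain. Library totals ran from 3.92 to 16.16 megareads (median 10.51), so 1 CPM is 3.92 to 16.16 reads. The names of the 4 columns of passage 10 hold an extra number of unstated meaning; they were taken as passage 10. The table had 0 blank or summary rows and 0 unused value columns. Libraries of a group all differed beyond sampling noise, with a chi-square per gene of at least 4.99 over 264 pairs.

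CPM for choosing and describing genes used column totals. Tests used edgeR 4.0.16 in R 4.3.3 (limma 3.58.1): filterByExpr, TMM scaling, the quasi-likelihood test, and Benjamini-Hochberg adjustment over all genes tested at 0.05, with a common biological coefficient of variation of 16.96%. They were tried on simulated counts drawn independently for each library, so deviations shared by libraries of a passage were not covered. DESeq2 1.42.0, other scalings, no filter, each passage left out, passage as a block, and other settings for the choice of genes were alternatives. DESeq2 was run on all genes with a read, without the filter on low counts.

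The members, lists and tests were chosen with earlier results of these data known. Genes named were the 2 lowered furthest, the 2 most abundant, the 2 with the smallest p in the summed slope and in the solute by passage test, the 2 with the highest and the 1 with the lowest control CV, neighbours in the annotation (3 closest pairs), and those on either side of each limit. Lists by symbol (transporters, channels, cell markers) were not applied, since no identifier was paired with a symbol, and the epithelial identity of the cells was not checked against markers. The name table used here was of assembly UU_Cfam_GSD_1.0.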

Additional observations from a re-analysis of the deposited data

How the results depend on the processing

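The number of genes in the set depended most on how libraries were scaled. With totals scaled by TMM 110 genes met the same conditions, of which 105 were among the 168, and with DESeq2 size factors 107 did, of which 98 were; with 1 CPM added to each mean, 115 did. Other settings of the choice gave 142 to 187 genes, and leaving out each passage in turn gave 161 to 183. Without the control library of passage 4 and the urea libraries of passages 5 and 8, chosen after seeing the data, 167 genes met the conditions, of which 160 were among the 168. Of the 168, 168 were then called lower after NaCl and 168 lower after raffinose, where 69.8% and 74.0% of all genes were called in either direction. After urea 62 were called in either direction (26 higher, 36 lower), where 50.2% of all genes were. Called higher after NaCl than after raffinose were 44, where 14.98% of all genes were called in either direction. For the 22 genes named by rule, all 792 alternative values of the NaCl and raffinose differences from control kept their direction and side of the threshold. The same differences chose these genes, so that outcome was largely fixed by the choice and is a description. The passage results of the named genes did not all keep their side of the threshold, as given with each gene.

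For the slope over passage, DESeq2 called 4 of the 168 genes, where it called 176 of 25518 (0.690%). A fit of 48 libraries with a term for group called 26 of the 168, 2 higher and 24 lower, where it called 2066 of 12962 genes (15.9%) in either direction. That fit counts the 4 libraries of a passage as separate, and its estimates differ too. Its median slope for the 168 was -0.06 log2 units per 10 passages, beside 0.00 over all genes, where the summed fit gave 0.01 for the 168. Leaving out each passage in turn gave 0 to 1 in edgeR, with 1 without passage 4, where 64 of 14627 genes were called. For the slope in control DESeq2 called 5, where it called 371 of 21748 genes (1.71%). The DESeq2 shares are over genes not filtered on low counts, so they are not like for like with the 168. Leaving out each passage gave 0 to 1 in edgeR, with 1 without passage 4 (191 of 12447 genes) and 1 without passage 10 (98 of 12464 genes). The cause was not tested.

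The labels give the passage number but not a shared culture. Deviations from group means correlated at a mean of 0.292 (-0.0748 to 0.679) in 72 pairs of libraries of the same passage, 66 of them over 0.1, and at -0.0264 in 792 other pairs; in 114 of 144 cases a library correlated best with its own passage number in another group. With passage as a replicate block, 168 of the 168 genes were called lower after NaCl and 168 after raffinose. In either direction 75.5% and 78.8% of 13256 genes were called there, and these contrasts chose the 168 genes. After urea 88 of the 168 were called (33 higher, 55 lower), where 59.9% of all genes were. Between NaCl and raffinose 70 were called (69 higher, 1 lower after NaCl), where all genes called went from 1948 to 3634. The solute by passage test called 1 of the 168 and 14 genes in all, against 0.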
